A study of Picromerus lewisi with 6 samples.

Results

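The cytosolic factors and tRNA ligases that carry out protein synthesis were followed in venom glands. These glands came from Picromerus lewisi, a predatory stink bug whose saliva is used to subdue prey. The factors and ligases comprised 75 of the 22242 transcript clusters in the deposited table. A cluster was a member when its best Swiss-Prot match named a eukaryotic initiation factor, an elongation factor of class 1 or 2, a peptide chain release factor or a tRNA ligase, and when its first protein match came from Halyomorpha or Nezara, 2 other genera of stink bug. The Swiss-Prot names fitted 101 clusters, of which 90 had such a first match, and 15 of these were dropped because they were named as mitochondrial.

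Adult glands and glands of nymphs of the fifth instar were compared, with 3 RNA-seq libraries for each stage. The labels give no sex, diet, age within the stage or strain, and they do not say whether a library came from 1 animal or from pooled glands. The p-values therefore cover no more than the variation among these libraries, and that variation may be technical. In whole glands, fewer cells of a type and less RNA per cell cannot be told apart.

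A ribosome needs different helpers at each step of making a protein. Initiation factors load the small ribosomal subunit with the initiator tRNA, bring it to the capped end of a messenger RNA and guide it to the start codon. Elongation factors deliver each charged tRNA and move the ribosome along, release factors free the finished chain at a stop codon, and tRNA ligases charge every tRNA with its amino acid. Venom glands export large amounts of protein, so this machinery serves the main activity of the tissue.

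The members held 31 initiation factor clusters, 4 elongation factor clusters, 2 release factor clusters and 30 tRNA ligase clusters. Another 7 clusters carried an initiation factor's name but matched regulators, namely 5 kinases of the alpha subunit of eIF2 and 2 proteins that bind eIF4E. The remaining cluster matched Transcription elongation factor 1 homolog, which works on RNA polymerase and not on ribosomes, so the label did not hold for it. All 13 subunits of eIF3, A to M, and ligases for all 20 amino acids were found. Of the first protein matches, 51 came from Halyomorpha and 24 from Nezara, and 24 of the 75 carried no informative name there, so that their identity rests on Swiss-Prot. The 11 clusters with fitting names but other first matches included eIF1, which matched a wasp, and eIF5B, which matched the plant bug Apolygus lucorum. Others matched moths, among them an eEF1A cluster of 1311 bases that was listed at 0 in all 3 adult libraries and had an FPKM of 3.8, 9.73 and 1.09 in nymphs.

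The libraries differed widely in the share of fragments in clusters that match other stink bugs. Between 13336681 and 18656372 fragments fell in clusters of at least 400 bases, but the share in Halyomorpha or Nezara clusters was 7.7%, 64.6% and 27.8% in adult replicates 1, 2 and 3, against 24.8%, 30% and 16.8% in nymph replicates 1, 2 and 3. Adult replicate 1 stood apart at the low end, with 4927 clusters at an FPKM (fragments scaled by cluster length and library total) of 1 or more, against 8679 to 18155 in the others. Adult replicate 2 stood apart at the high end, with 18155. It had 87.9% of all clusters above 0, against 32.3% to 68.3% in the others. Clusters with other or no first match can also be Picromerus RNA, and what the remaining fragments of adult replicate 1 are was not analysed here. Summed over the members it had 16060 fragments, with a median of 54 per member, whereas the other 5 libraries had medians of 254 to 796.5. The 76 clusters with names of salivary or venom proteins were taken whatever their first match. Their summed FPKM equalled 35.2% to 54.2% of the Halyomorpha and Nezara FPKM in adults, with 28.4% to 38.5% in nymphs, which fits the labelled tissue. Markers of epidermis, 28 clusters, summed to an FPKM of 1.6 to 15.2 in adults, with 1 to 8 clusters above 0, and to 101.0 to 390.7 in nymphs, with 12 to 25 above 0. Muscle markers, 51 clusters, summed to 90.8 to 418.6 in adults, compared with 309.9 to 604.3 in nymphs, and haemocyte markers, 19 clusters, to 265.3 to 2531.6 in adults, against 268.5 to 1866.5 in nymphs. Fat body markers, 16 clusters, summed to 4.7 to 133.1 in the adult libraries, with 39.2 to 47.6 in nymphs, and neuron markers, 12 clusters, to 13.5 to 219.3 in adults, compared with 51.5 to 101.1 in nymphs. The part of these cell types in the differences described here was not tested.

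To set the libraries on a common scale, each library's FPKM was divided by 1 size factor, taken from the 4653 clusters above 0 in all 6 libraries. The result, called rescaled FPKM here, still corrects for cluster length, so levels can be compared between longer members. The FPKM fitted a cluster length less 217.25 to 293.25 bases, depending on the library. In clusters under 400 bases little length is then left, so their levels are less certain. The stages were compared with limma on log2(rescaled FPKM + 1), in clusters that reached an FPKM of 1 in at least 3 of the libraries. Differences are adult minus nymph and are given with their standard error (SE). On this scale the change of weakly expressed clusters is understated.

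No member passed a Benjamini-Hochberg adjusted p of 0.05 in limma, of 67 that could be tested. The 8 others, under the limit on FPKM, were 4 short ligase clusters and 4 kinase clusters. Over the whole table, 0.234% of the 11961 tested clusters passed, 12 higher in adults (0.1%) and 16 lower (0.134%), so a count of 0 members is close to the background. At an unadjusted p under 0.05, 2 of the 67 members passed, against 9.05% of all tested clusters. Limma-voom on fragment counts recovered from the FPKM, tried after seeing the data, also called 0 members, of 65 tested, and found 0 at an unadjusted p under 0.05. It left out the same 2 members that passed unadjusted in limma. They have 380 and 360 bases, and fragments were recovered only for clusters of at least 400 bases. The fit therefore gives no second result for these 2. Of the 67 members, 9 had rescaled FPKM that did not overlap between the stages, or 13.4%, against 14.1% of all tested clusters. In 1 of the 9 the adults lay above the nymphs and in 8 below, against a background of 3.95% above and 10.1% below.

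The median log2 difference over the tested members was -0.22, with 16 above and 51 below 0, and that of all 11961 tested clusters was -0.29. With a pseudocount of 0.1 these medians were -0.27 for the members and -0.59 for all clusters. Leaving out adult replicate 1 turned the members' median to 0.03, while the median of all clusters was then -0.17. Over the clusters above 0 in all 6 libraries, which leaves 59 members, the members' median was -0.19 and that of all 4623 tested clusters was 0.01. The size factors were taken from nearly these same clusters, which sets their median near 0. The 0.01 is therefore not an independent background. By role, the medians were -0.23 for initiation factors, -0.70 for elongation factors, 0.28 for the release factors and -0.18 for tRNA ligases. The elongation factors' median was below 0 under each alternative processing tried and with each library left out in turn. It was -1.23 at equal total FPKM, where the SE of each elongation factor was 1.41. The median of all tested clusters was also below 0 in these settings, apart from 0.01 in the fit to clusters above 0 in all libraries. With 1 library left out, that median was -0.40 to -0.17. Without adult replicate 1 the initiation factors' median became 0.03 and that of the ligases 0.14.

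**Figure D1:**
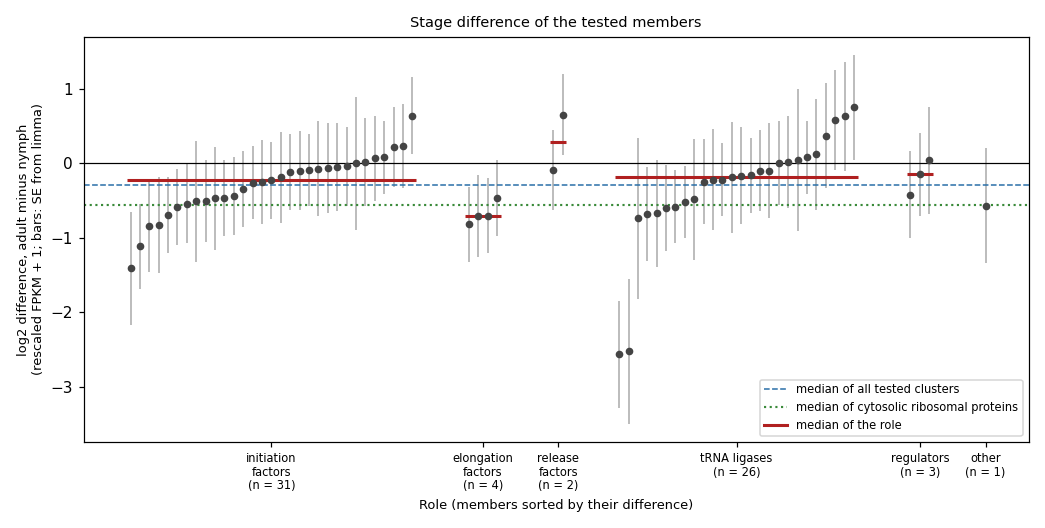
Log2 difference (adult minus nymph, rescaled FPKM + 1) of each of the 67 tested members, grouped by role and sorted within it, with the SE from limma as bars (3 libraries per stage); red lines mark the median of a role, the dashed line the median of all tested clusters (-0.29) and the dotted line that of cytosolic ribosomal proteins (-0.56). All 4 elongation factors lie below the dashed line, initiation factors and ligases lie on both sides of it, and the 2 lowest points are short ligase clusters.

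The elongation factors were by far the most abundant members. Elongation factor 1-alpha 2 (eEF1A, Cluster-9520.4354, 2069 bases) delivers charged tRNAs to the ribosome and is among the most abundant proteins of most cells. It had a deposited FPKM of 322.82, 2157.28 and 2163.04 in adults, against 2046.01, 3305.8 and 1859.44 in nymphs, in the order of replicates 1, 2 and 3. These deposited values overlapped between the stages, with adult replicate 1 far below every other library. After rescaling eEF1A had 1139, 1313 and 1387 in the adult libraries, with 2001, 2429 and 1878 in nymphs, so that the adults no longer overlapped the nymphs. The difference was -0.71 ± 0.55 (SE) on the log2 scale, and it did not pass the test, with a Benjamini-Hochberg adjusted p of 0.75 in limma.

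Its exchange factor followed the same order. Elongation factor 1-beta (Cluster-9520.4079, 970 bases) recharges eEF1A with GTP and had a rescaled FPKM of 299, 241 and 262 in adults, compared with 515, 418 and 375 in nymphs. Elongation factor 1-gamma (Cluster-9520.4359, 1334 bases), the scaffold of the exchange complex, had 196, 204 and 273 in adults, against 333, 495 and 369 in nymphs. For both, every adult library lay below every nymph library after rescaling, while the deposited values overlapped. The log2 difference was -0.70 ± 0.50 (SE) for the beta subunit and -0.82 ± 0.50 for the gamma subunit, with Benjamini-Hochberg adjusted p of 0.74 and 0.72 in limma.

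Translation elongation factor 2 (eEF2, Cluster-9520.4348, 2906 bases), the GTPase that moves the ribosome by a codon, had a rescaled FPKM of 202, 260 and 303 in the adult libraries, with 292, 465 and 306 in nymphs. The stages overlapped, since adult replicate 3 lay above nymph replicate 1. The log2 difference was -0.46 ± 0.51 (SE), with a Benjamini-Hochberg adjusted p of 0.81 in limma, and it was -0.29 without adult replicate 1 and -0.28 without nymph replicate 2. At equal total FPKM it was -0.98, and those of eEF1A, the beta and the gamma subunit were -1.24, -1.22 and -1.34. The SE was then 1.41 for each of the 4, larger than in the main fit. Thus 3 of the 4 elongation factors, the subunits of eEF1, had adults below nymphs without overlap, as did 10.1% of all tested clusters, and none of the 4 passed the test.

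The elongation factors made up 74.2%, 66.6% and 68.4% of the members' FPKM in adults, compared with 81.2%, 74.4% and 72.1% in nymphs, so the ranges overlapped. Their summed rescaled FPKM was 1836, 2018 and 2225 in adults, against 3141, 3807 and 2928 in nymphs, without overlap. As a share of the Halyomorpha and Nezara FPKM they took 0.386%, 0.333% and 0.901% in the adult libraries, with 1.04%, 1.11% and 1.2% in nymphs. With the venom and salivary clusters left out of the denominator, these shares were 0.79%, 0.727% and 1.39% in adults, compared with 1.44%, 1.81% and 1.68% in nymphs, again without overlap. All other members together took 0.275%, 0.365% and 0.643% in adults, against 0.335%, 0.622% and 0.652% in nymphs on that denominator, with overlap. These shares were looked at after the values of single members were known, and they are given as a description.

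**Figure D2:**
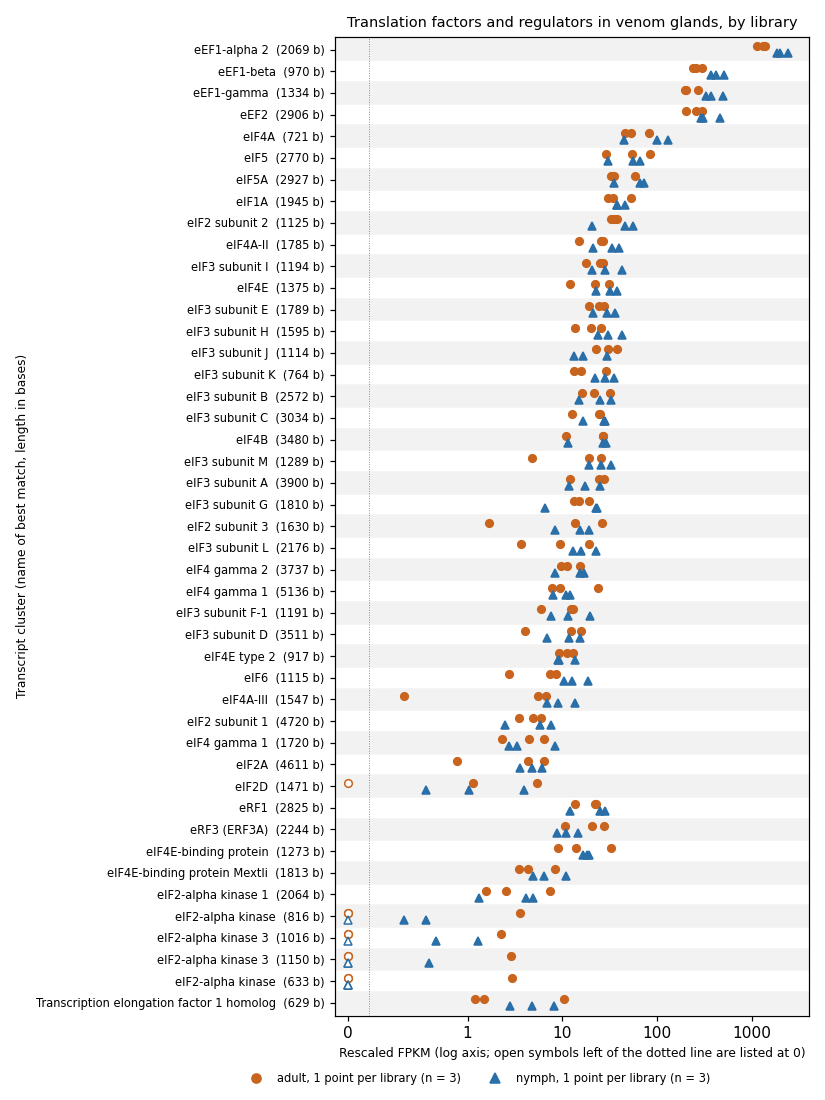
Rescaled FPKM (log axis) of the 45 member clusters that are not tRNA ligases (initiation, elongation and release factors, regulators and Transcription elongation factor 1 homolog), with 1 point per library (3 adult libraries as circles, 3 nymph libraries as triangles) and the cluster's length in bases; open symbols mark libraries in which a cluster is listed at 0. The 4 elongation factors stand apart at 196 or more in every library, and the lowest filled circle among the initiation factors, eIF4A-III, belongs to adult replicate 1.

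Among the initiation factors, 6 of 31 had a log2 difference above 0 and 25 below, with a range of -1.41 to 0.64. The most abundant was Eukaryotic initiation factor 4A (Cluster-9520.5356, 721 bases), a helicase that unwinds the start of the messenger RNA. It had a rescaled FPKM of 46.1, 53.3 and 82.6 in the adult libraries, with 45, 130 and 101 in nymphs. The stages overlapped because nymph replicate 1 was as low as the lowest adult library, and the log2 difference was -0.51 ± 0.55 (SE). It depended on single libraries, at -0.97 without nymph replicate 1, -0.80 without adult replicate 3, -0.32 without adult replicate 1 and -0.23 without nymph replicate 2. At equal total FPKM it was -1.01 ± 1.36 (SE). A longer cluster named eIF4A-II (Cluster-9520.5355, 1785 bases) had 22.6 ± 6.54 in adults, compared with 31.6 ± 9.45 in nymphs (SD, n = 3 each). Since eIF4A genes are close in sequence, the share of reads between these clusters is uncertain.

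Eukaryotic translation initiation factor 5 (eIF5, Cluster-9520.5309, 2770 bases), which makes eIF2 give up its GTP once the start codon is found, had 28.8, 83.9 and 54.4 in adults, against 30.5, 65.6 and 56.1 in nymphs. Replicate 1 was the lowest library in both stages, and the log2 difference of 0.07 ± 0.57 (SE) was small beside its error. Eukaryotic translation initiation factor 5A (eIF5A, Cluster-9520.4971, 2927 bases), the only protein known to carry the modified residue hypusine, had 35.5, 32.6 and 58.6 in the adult libraries, with 35, 66.9 and 73.3 in nymphs. Its log2 difference was -0.44 ± 0.52 (SE), with overlap. It was -0.79 without nymph replicate 1, -0.74 without adult replicate 3 and -0.26 without nymph replicate 3, and -0.93 ± 1.35 (SE) at equal total FPKM. Deoxyhypusine hydroxylase, which completes that residue, had a deposited FPKM of 0.8, 18.25 and 37.82 in adults, compared with 15.29, 38.72 and 26.6 in nymphs and did not pass the test either, with a Benjamini-Hochberg adjusted p of 0.72 in limma.

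The complex eIF2 brings the initiator tRNA, and its subunits differed in level more than the stages did. Subunit 2 (beta, Cluster-9520.2977, 1125 bases) had a rescaled FPKM of 37.5, 35.7 and 32.8 in adults, against 20.7, 55.9 and 46.6 in nymphs, with a log2 difference of -0.10 ± 0.53 (SE). The adult libraries lay close together, inside the wider range of the nymphs. Subunit 1 (alpha, 4720 bases), the target of the stress kinases, averaged 4.76 ± 1.23 in the adult libraries, with 5.34 ± 2.6 in nymphs (SD, n = 3 each). The ratio of the alpha to the beta subunit was 0.0931, 0.166 and 0.148 in adults, compared with 0.121, 0.137 and 0.126 in nymphs, so alpha was the scarcer transcript in each of the 6 libraries. Subunit 3 (gamma, 1630 bases), which holds the tRNA, had a ratio to beta of 0.0452, 0.383 and 0.81 in adults, against 0.407, 0.342 and 0.333 in nymphs. The low adult value comes from adult replicate 1, where only 9 fragments of gamma were counted.

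The 13 subunits of eIF3, the scaffold on the small ribosomal subunit, lay within a factor of 6.32 of each other in each library. Their deposited FPKM ran, as lowest, median and highest, from 1.03 over 3.73 to 6.51 in adult replicate 1, from 20.3 over 33 to 61.9 in adult replicate 2 and from 9.25 over 39.1 to 47.9 in adult replicate 3. In nymphs they ran from 6.78 over 17 to 24.5 in replicate 1, from 10.3 over 38.4 to 58.6 in replicate 2 and from 11.4 over 25.3 to 34.6 in replicate 3. The highest subunit was thus 3.05 to 6.32 times the lowest in the adult libraries, with 3.03 to 5.7 times in nymphs. The log2 differences had a median of -0.25, with 3 above and 10 below 0, and no subunit was without overlap between the stages.

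Subunit J (Cluster-9520.4980, 1114 bases), a loosely held subunit that acts at the decoding site, had the largest positive difference among the initiation factors. Its rescaled FPKM was 23, 37.7 and 30.7 in adults, compared with 13.3, 16.7 and 29.8 in nymphs, and only nymph replicate 3 reached into the adult range. The log2 difference was 0.64 ± 0.52 (SE), with a Benjamini-Hochberg adjusted p of 0.76 in limma, and it was 0.38 without nymph replicate 1 and 0.18 at equal total FPKM. Set against the median eIF3 subunit of the same library, J was at 1.75, 1.87 and 1.23 times in adults, against 0.798, 0.592 and 1.17 times in nymphs. Those ratios do not overlap, but they were chosen after the values were seen, and adult replicate 3 and nymph replicate 3 lie close together.

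Other eIF3 subunits had negative differences or lay near 0. Subunit L (Cluster-9520.4742, 2176 bases) had 3.63, 19.3 and 9.42 in the adult libraries, with 12.9, 22.7 and 15.9 in nymphs. Its log2 difference was -0.84 ± 0.62 (SE). Without adult replicate 1, the lowest library, it was -0.28, and without adult replicate 2 it was -1.36. Subunit A (Cluster-9520.5532, 3900 bases), the largest scaffold subunit, had 12.2, 27.8 and 24.5 in adults, compared with 11.8, 24.9 and 17.6 in nymphs. Its log2 difference of 0.22 ± 0.54 (SE) turned negative under another scaling, at -0.01 for the FPKM as deposited and -0.20 at equal total FPKM.

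The most negative differences among the initiation factors belonged to proteins with further roles. Eukaryotic initiation factor 4A-III (Cluster-9520.1188, 1547 bases) is known mainly as a core part of the exon junction complex on spliced messenger RNA. It had 0.212, 5.61 and 6.72 in adults, against 9.02, 6.91 and 13.6 in nymphs, without overlap, and a log2 difference of -1.41 ± 0.76 (SE) with a Benjamini-Hochberg adjusted p of 0.67 in limma. The value of adult replicate 1 rests on 1 fragment, and without that library the difference was -0.56. Eukaryotic translation initiation factor 6 (eIF6, Cluster-9520.5304, 1115 bases), which keeps the large ribosomal subunit from joining too early and also acts in its making, had 2.75, 7.38 and 8.7 in the adult libraries, with 10.4, 12.7 and 18.6 in nymphs. Every adult library lay below every nymph library, and the log2 difference was -1.11 ± 0.57 (SE) with a Benjamini-Hochberg adjusted p of 0.64 in limma. Adult replicate 1 had 9 fragments of eIF6, and the difference without it was -0.69.

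For the other parts of the cap-binding complex eIF4F the stages overlapped. Eukaryotic translation initiation factor 4 gamma 1 (eIF4G, Cluster-9520.3752, 5136 bases), the scaffold that joins cap and ribosome, had 7.83, 23.7 and 9.52 in adults, compared with 11.1, 12.1 and 7.91 in nymphs. Its log2 difference of 0.23 ± 0.56 (SE) rested on adult replicate 2, without which it was -0.24, and it was -0.13 at equal total FPKM. A shorter cluster of the same name (Cluster-9520.4575, 1720 bases) averaged 4.4 ± 2.09 in adults, against 4.84 ± 3.09 in nymphs (SD, n = 3 each). The log2 difference of that cluster was -0.07 ± 0.64 (SE). The cap-binding protein eIF4E (1375 bases) averaged 21.9 ± 9.7 in adults, against 30.8 ± 7.79 in nymphs, and eIF4B, which stimulates the helicase, averaged 21.6 ± 9.31 in the adult libraries, with 22.4 ± 9.54 in nymphs (SD, n = 3 each). Over the 9 eIF4 clusters the median log2 difference was -0.12, with 2 above and 7 below 0. The factor eIF1A, which helps to open the small subunit for scanning, averaged 39.4 ± 12.3 in adults, compared with 40.8 ± 4.88 in nymphs. Its partner eIF1, which is not a member because its first match is a wasp protein, had a deposited FPKM of 16.42, 70.4 and 111.58 in adults, against 93.51, 120.37 and 98.6 in nymphs.

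The release factors were of similar level in adults but not in all nymphs. The GTPase subunit ERF3A (eRF3, Cluster-9520.5346, 2244 bases) had a rescaled FPKM of 10.6, 27.4 and 20.6 in the adult libraries, with 11, 8.83 and 14.7 in nymphs. Adult replicates 2 and 3 lay above every nymph library, and adult replicate 1 lay among the nymphs. The log2 difference was 0.65 ± 0.54 (SE), with a Benjamini-Hochberg adjusted p of 0.76 in limma, and it was 1.04 without adult replicate 1, 0.34 without adult replicate 2 and 0.26 at equal total FPKM. Subunit 1 (eRF1, Cluster-9520.4108, 2825 bases), which reads the stop codon, had 13.8, 23 and 22.4 in adults, compared with 12, 28.3 and 25.1 in nymphs. Its log2 difference was -0.09 ± 0.53 (SE), with full overlap. The ratio of eRF3 to eRF1 within a library was 0.77, 1.19 and 0.922 in adults, against 0.909, 0.311 and 0.585 in nymphs, and nymph replicate 1 lay inside the adult range.

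**Figure D3:**
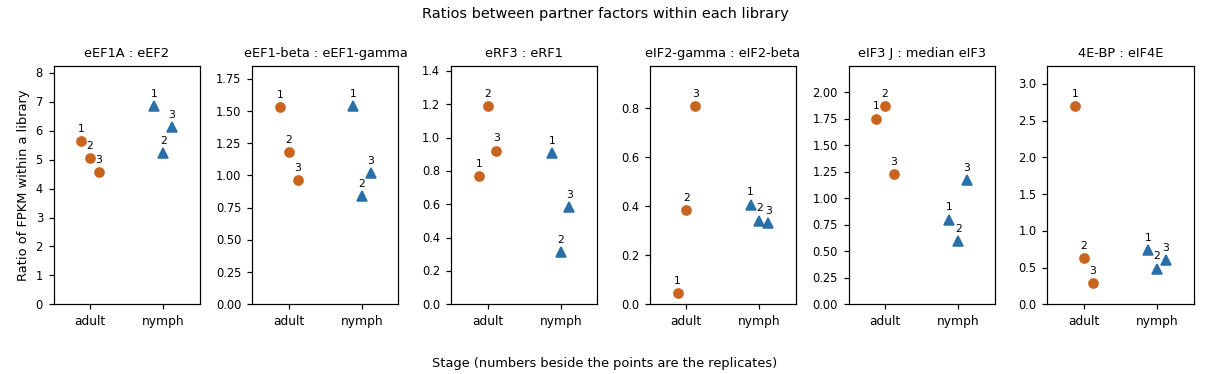
Ratio of the FPKM of partner factors within each library, with 1 point per library (adult circles left, nymph triangles right, replicate numbers beside the points) and an axis from 0 in each panel. The ratio of eIF3 subunit J to the median eIF3 subunit is 1.23 to 1.87 in the adult libraries, with 0.592 to 1.17 in nymphs, and the low eIF2-gamma ratio (0.0452) and the high eIF4E-binding protein ratio (2.7) are both adult replicate 1.

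Balances between the elongation factors themselves differed little. The ratio of eEF1A to eEF2 was 5.63, 5.06 and 4.58 in adults, compared with 6.86, 5.22 and 6.13 in nymphs, with overlap. The beta subunit of eEF1 stood to the gamma subunit at 1.53, 1.18 and 0.962 in adults, against 1.54, 0.843 and 1.02 in nymphs, which fills the same range in both stages. Summed elongation factors over summed initiation factors gave 4.12, 2.9 and 3.07 in the adult libraries, with 6.21, 4.16 and 3.54 in nymphs, and adult replicate 1 overlapped the nymphs.

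The 30 tRNA ligase clusters were expressed at far lower levels than the elongation factors, and together made up 4.88% to 7.55% of the members' FPKM in adults, compared with 4.47% to 6.3% in nymphs. Of the 26 tested, 8 had a log2 difference above 0 and 18 below, with a range of -2.56 to 0.75. Serine--tRNA ligase (Cluster-9520.3567, 1564 bases), which also charges the tRNA for selenocysteine in animals that use it, was the most abundant. It had a rescaled FPKM of 24.8, 37.8 and 49.2 in adults, against 34.5, 49 and 38.7 in nymphs, and a log2 difference of -0.16 ± 0.50 (SE).

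The next in order were the ligases for asparagine, aspartate, glycine, methionine and tyrosine. Asparagine--tRNA ligase (Cluster-9520.5981, 2461 bases) had 6.53, 22.2 and 23.5 in the adult libraries, with 9.09, 30.1 and 18.3 in nymphs, lowest in replicate 1 of both stages. Glycine--tRNA ligase (Cluster-9520.4595, 3881 bases) had 9.17, 13.6 and 20.1 in adults, compared with 10.5, 22.6 and 13.2 in nymphs. For both the stages overlapped, and the log2 differences were -0.17 ± 0.65 and -0.10 ± 0.54 (SE). Aspartate--tRNA ligase (Cluster-9520.2307, 1686 bases) had 10.7, 14.5 and 16.2 in adults, against 20, 23.8 and 16.7 in nymphs. Its adults lay just below its nymphs, 16.2 against 16.7 at the closest, and the log2 difference of -0.52 ± 0.48 (SE) had a Benjamini-Hochberg adjusted p of 0.78 in limma. At equal total FPKM it was -0.94 ± 1.30 (SE). Tryptophan--tRNA ligase was the other abundant ligase without overlap, at 9.16 ± 1.56 in adults, compared with 14.4 ± 4.2 in nymphs (SD, n = 3 each).

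Taking the longest cluster for each amino acid or subunit, the mean rescaled FPKM over the 6 libraries ran from 39 for serine to 2.16 for glutamine. The gap from serine to asparagine, at 18.3, was the widest step. From asparagine through aspartate at 17, glycine at 14.8, methionine at 13.3, tyrosine at 12.4, threonine at 12.3 and tryptophan at 11.8, neighbours in the order differed by less than the spread between libraries. Lysine followed at 8.34, histidine at 7.43, alanine at 6.62, arginine at 6.44 and the beta subunit for phenylalanine at 5.14. The lowest were leucine at 4, valine at 3.72, isoleucine at 3.68, cysteine at 2.79, glutamate and proline at 2.35, the alpha subunit for phenylalanine at 2.34 and glutamine. The beta subunit for phenylalanine, which pairs with the alpha subunit in 1 enzyme, averaged 3.92 ± 2.3 in the adult libraries, with 6.36 ± 2.15 in nymphs (SD, n = 3 each). The alpha subunit averaged 2 ± 1.76 in adults, against 2.68 ± 1.45 in nymphs.

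In animals the ligases for glutamate and proline, isoleucine, leucine, methionine, glutamine, lysine, arginine and aspartate are known to sit in 1 large complex. The longest clusters of these 8 had a median rescaled FPKM of 5.22, and the 12 longest clusters of the free ligases, with the alpha and beta subunits for phenylalanine counted apart, one of 9.62, with ranges of 2.16 to 17.0 and 2.34 to 39.0. Of the tested complex ligase clusters 6 lay above and 6 below 0, with a median log2 difference of -0.08, and of the free ones 2 above and 12 below, with a median of -0.19. These counts take every tested cluster and not only the longest. The glutamate and proline ligase, matched by 6 clusters of which not all were tested, thus entered several times. Among the free ligases those for tyrosine and valine also entered more than once. The complex's scaffold protein AIMP2 had a deposited FPKM of 4.0, 29.16 and 14.86 in adults, against 26.07, 31.02 and 29.9 in nymphs, and its log2 difference of -0.91 ± 0.49 (SE) had a Benjamini-Hochberg adjusted p of 0.67 in limma.

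Among the ligases, the largest positive differences among clusters whose mean rescaled FPKM reached 5 in the higher stage were close to 0. Tyrosine--tRNA ligase (Cluster-9520.6362, 1641 bases) had 13.9, 15 and 9.52 in the adult libraries, with 9.8, 13.9 and 12.2 in nymphs. Its log2 difference was 0.08 ± 0.49 (SE). Arginine--tRNA ligase (Cluster-9520.2868, 2199 bases) had 8.36, 7.03 and 3.61 in adults, compared with 2.8, 9.84 and 7.01 in nymphs, and a log2 difference of 0.02 ± 0.62 (SE). Both turned negative with the FPKM as deposited, at -0.17 for tyrosine and -0.22 for arginine. Below that level, the bifunctional ligase for glutamate and proline gave the only member whose adults all lay above the nymphs. Its longest cluster (Cluster-9520.1187, 2324 bases) had 2.36, 4.41 and 2.33 in adults, against 1.12, 1.93 and 1.93 in nymphs, with a log2 difference of 0.58 ± 0.67 (SE) and a Benjamini-Hochberg adjusted p of 0.82 in limma. The ligase for glutamine, the scarcest, had the highest difference of all members, 0.75 ± 0.70 (SE), from 2.26, 3.03 and 3.44 in adults, against 0.548, 2.34 and 1.36 in nymphs, with overlap. These last 2 ligases were chosen after their values were seen.

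The 2 members with the lowest p were short clusters of ligases that also had a longer cluster. A cluster of 380 bases matching the glutamate and proline ligase (Cluster-12286.0) was listed at 0 in adult replicates 1 and 3 and had 1.54 in adult replicate 2, against 4.58, 9.33 and 8.02 in nymphs. Its log2 difference was -2.56 ± 0.72 (SE), with a Benjamini-Hochberg adjusted p of 0.27 in limma. A cluster of 360 bases matching tyrosine--tRNA ligase (Cluster-9520.6363) was also listed at 0 in adult replicates 1 and 3 and had 8.97 in adult replicate 2, against 5.21, 26.8 and 9.93 in nymphs. The stages overlapped, and the log2 difference was -2.52 ± 0.97 (SE), with a Benjamini-Hochberg adjusted p of 0.43 in limma. Since 2 adult libraries were at 0, both values depended on the pseudocount, and with 0.1 they were -4.80 and -4.65. The longer clusters of the same 2 ligases had log2 differences of 0.58 and 0.08, and how reads were shared between short and long clusters is uncertain.

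**Figure D4:**
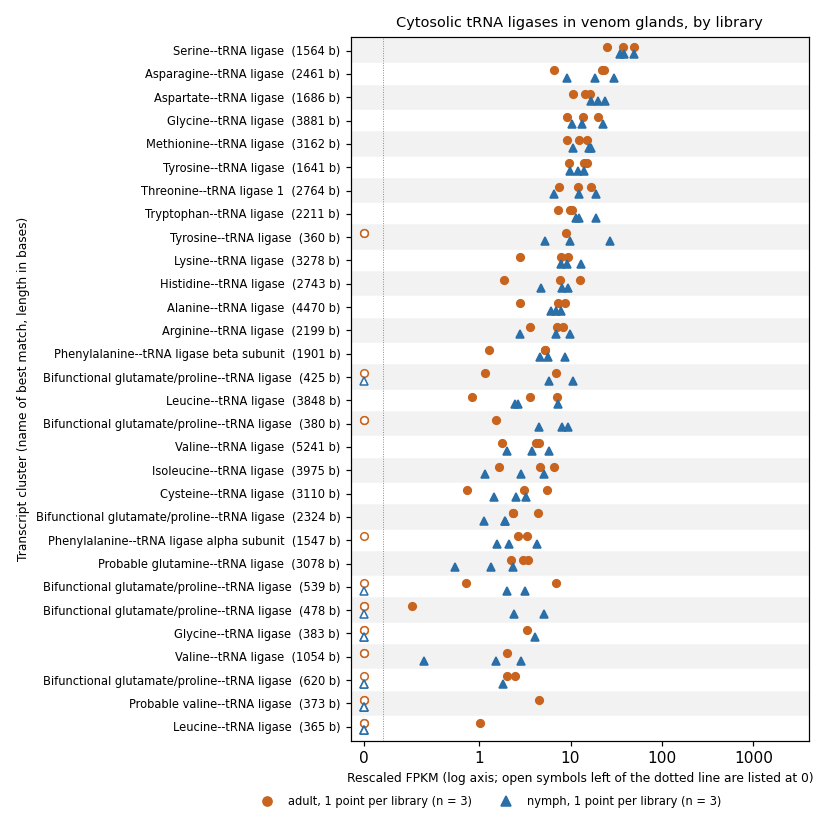
Rescaled FPKM (log axis) of the 30 cytosolic tRNA ligase clusters, sorted by their mean over the 6 libraries, with 1 point per library (3 adult libraries as circles, 3 nymph libraries as triangles) and the cluster's length in bases; open symbols mark libraries in which a cluster is listed at 0. The longer clusters lie between about 1 and 49.2 in most libraries, and nearly all open symbols belong to short clusters.

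The glutamate and proline ligase was matched by 6 clusters of 380 to 2324 bases, the glycine, tyrosine and leucine ligases by 2 each and the valine ligase by 3. Whether clusters matching the same ligase are parts of 1 gene or separate genes was not tested. A further short cluster of the glutamate and proline ligase (Cluster-3296.0, 425 bases) was listed at 0 in adult replicate 1 and nymph replicate 1, with 1.16 and 7 in the other adults and 10.7 and 5.89 in the other nymphs. Its log2 difference was -0.74 ± 1.08 (SE), and it ran between -1.80, without nymph replicate 1, and 0, without adult replicate 1. Of the 16 members under 1000 bases, 11 were listed at 0 in at least 1 library, against 5 of the 59 longer ones. Members were listed at 0 in 16, 0 and 11 cases in adult replicates 1, 2 and 3 and in 9, 6 and 5 cases in nymph replicates 1, 2 and 3.

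Regulators of initiation were weakly expressed, apart from the eIF4E-binding protein. This repressor, which competes with eIF4G for eIF4E, had a rescaled FPKM of 32.6, 14.1 and 9.02 in the adult libraries, with 16.6, 18.5 and 19.2 in nymphs. The adults spread around the narrow range of the nymphs, and the log2 difference was -0.15 ± 0.56 (SE). Its ratio to eIF4E was 2.7, 0.632 and 0.286 in adults, compared with 0.734, 0.486 and 0.604 in nymphs. Mextli, an eIF4E-binding protein known from Drosophila, averaged 5.43 ± 2.67 in adults, against 7.51 ± 3.2 in nymphs (SD, n = 3 each). The kinases of eIF2-alpha lower initiation under stress. Of their 5 clusters, 1 was above 0 in all 6 libraries, at 2.58, 7.36 and 1.58 in the adult libraries, with 1.32, 4.96 and 4.17 in nymphs. The other 4 were listed at 0 in adult replicates 1 and 3 and in nymph replicate 1, and reached 2.25 to 3.55 in adult replicate 2. The 5 subunits of eIF2B, the exchange factor whose block by phosphorylated eIF2 is the core of that response, carry names outside the rule. Their deposited FPKM was 0 to 1.46, 4.24 to 12.91 and 5.41 to 19.18 in adult replicates 1, 2 and 3, against 0.54 to 11.99, 6.74 to 17.49 and 5.07 to 9.74 in nymph replicates 1, 2 and 3.

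Transcription elongation factor 1 homolog, the member that is no translation factor, had 10.4, 1.21 and 1.48 in adults, against 2.8, 4.81 and 8.16 in nymphs, and a log2 difference of -0.57 ± 0.77 (SE).

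The order of the members by level was much the same in every library. Over the 59 members above 0 in all 6, Spearman's coefficient between libraries was 0.771 to 0.848 for pairs with adult replicate 1 and 0.869 to 0.938 for the other pairs, adult with nymph included. This is across members, which are not independent replicates and have the same length in every library.

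Of 35 clusters of other translation genes, such as poly(A)-binding proteins, ribosome rescue factors and the enzymes that modify eIF5A and eEF2, 29 could be tested and 0 passed the Benjamini-Hochberg adjusted threshold in limma, against 2 at an unadjusted p under 0.05. Limma-voom called 0 of 28, against 1 unadjusted. It left out 1 of the 2 that passed unadjusted in limma, an ATP-binding cassette sub-family F member 2 cluster of 335 bases. That is under the limit of 400 bases for recovered fragments. The log2 differences of the 29 in limma lay above 0 in 6 and below 0 in 23, with a median of -0.46. The most abundant was Translationally-controlled tumor protein homolog, which is known to bind elongation factor 1, with a deposited FPKM of 90.53, 276.43 and 601.31 in adults, compared with 357.52, 826.16 and 497.93 in nymphs. Polyadenylate-binding protein 1, which links the tail of the messenger RNA to eIF4G, had 31.08, 424.77 and 381.54 in adults, against 140.47, 431.86 and 273.71 in nymphs. Their log2 differences were -0.79 ± 0.56 and -0.26 ± 0.58 (SE). Adult replicate 1 was the lowest library for both as deposited.

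Proteins of the ribosome itself lay further below 0 than most of the members. Of 74 clusters of cytosolic ribosomal proteins 72 were tested, 3 above and 69 below 0, with a median log2 difference of -0.56, and in 32 of the 72 the adults lay below the nymphs without overlap, against 10.1% of all tested clusters. Their median was -0.57 over the 70 above 0 in all libraries. The elongation factors' -0.70 was nearer to that of the ribosomal proteins than were the -0.23 of the initiation factors and the -0.18 of the ligases. Mitochondrial translation factors and ligases, 20 tested of 24, had a median of -0.72. This rests on values near 0, since only 4 of the 24 were above 0 in all libraries. In adult replicates 1, 2 and 3, 15, 1 and 12 of them were listed at 0, against 6, 3 and 0 in nymphs. No test was made of these differences between lists.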

How the data were processed

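RNA of venom glands was sequenced in 6 libraries, 3 from adults and 3 from nymphs of instar 5; per the labels' protocols, total RNA went into the NEBNext Ultra RNA library kit. The authors deposited FPKM per transcript cluster, with each cluster's length and best database matches; the tools named, per the submitters' processing notes, include DESeq2 1.20.0, HISAT2 2.0.5, featureCounts 1.5.0-p3, fastp and CASAVA 1.8. The assembly, its annotation steps and how FPKM was computed are not given in the sources used here. The members and lists were chosen with earlier results of these data known.

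Library depth was recovered from the steps of the FPKM: at a fitted total and length offset per library, 99.4% to 99.8% of the low values checked came within 0.15 of a whole fragment, where 30% would by chance. Fragments were computed for clusters of at least 400 bases and used for depths and for limma-voom. Precision is given as the spread between libraries.

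FPKM were divided by median-ratio size factors of 0.2835, 1.643 and 1.559 for adults and 1.022, 1.361 and 0.9902 for nymphs. Limma 3.58.1 (R 4.3.3, with trend and robust variance) was fitted to log2(rescaled FPKM + 1) over 11961 clusters that reached an FPKM of 1 in at least 3 of the libraries, with Benjamini-Hochberg adjustment over all of them and a threshold of 0.05. The procedure was tested on simulated data. Other steps used Python 3.11.15, pandas 2.3.3, numpy 2.4.6 and matplotlib 3.10.9.

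Members named with values in every library were those past the threshold, the 4 with the highest mean FPKM of each role, and the 3 largest positive and 3 largest negative differences of each role among tested members whose mean rescaled FPKM reached 5 in the higher stage. Members named beyond this rule, the within-library ratios and the shares were chosen after their values were seen. Alternatives covered the pseudocount, the filter, the scaling, the variance model, a replicate block, limma-voom and each library left out.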

Additional observations from a re-analysis of the deposited data

How the results depend on the processing

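Over 19 other settings, no member passed the adjusted threshold in limma or limma-voom, and the lowest Benjamini-Hochberg adjusted p of any member was 0.12. The number of clusters called over the whole table was 28 and depended on the setting: 12 with a pseudocount of 0.1, 104 without a filter, 65 with a filter on mean FPKM, 3 among clusters above 0 in all libraries, 72 with the FPKM as deposited, 46 after quantile normalization, 65 with array quality weights, and 1 to 54 when 1 library was left out, lowest without adult replicate 2 and highest without adult replicate 3. The median of all clusters was -0.29, and -0.59 with a pseudocount of 0.1, -0.33 as deposited, -0.39 at equal total FPKM, -0.26 with rescaling on Halyomorpha or Nezara clusters and -0.06 after quantile normalization. The members' median ran between -0.53, at equal total FPKM, and 0.03, without adult replicate 1. The elongation factors' median was -0.70, and -1.01 as deposited and -1.23 at equal total FPKM. The release factors' median of 0.28 was -0.13 at equal total FPKM.

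Of 470 alternative values of the 25 named members, 34 had the other sign, in 10 members with differences near 0. With the FPKM as deposited these were eIF3 subunit A at -0.01, eIF5 at -0.20, the arginine ligase at -0.22 and the tyrosine ligase at -0.17. At equal total FPKM they were eIF3 subunit A at -0.20, eIF4 gamma 1 at -0.13, eIF5 at -0.40, the arginine ligase at -0.39 and the tyrosine ligase at -0.36. Quantile normalization gave -0.12 for eIF5, array quality weights -0.18 for the arginine ligase, and limma-voom on recovered fragments, chosen after seeing the data, -0.20 for the arginine ligase and 0.04 for the asparagine ligase. With 1 library left out, the ranges were -0.54 to 0.14 for eIF2 subunit 2, -0.06 to 0.59 for eIF3 subunit A, -0.24 to 0.54 for eIF4 gamma 1, -0.30 to 0.49 for eIF5, -0.47 to 0.15 for eRF1, -0.43 to 0.32 for the arginine ligase, -0.61 to 0.41 for the asparagine ligase, -0.41 to 0.18 for the glycine ligase, -0.43 to 0.11 for the serine ligase and -0.07 to 0.21 for the longer tyrosine cluster. The cause was not tested.

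With the replicate number as a block, 29 clusters and 0 members were called and the members' median was -0.22. Same-numbered libraries did not deviate together in each case, with correlations of 0.165, -0.043 and 0.213, and the numbers were not taken as pairs. Adult replicates 1 and 3 were each closest to the nymph library of their own number. Adult replicate 2 was closest to nymph replicate 1, at 0.137. With 3 libraries per stage, these correlations cannot show whether same-numbered libraries shared a batch. Depth limits the members most in adult replicate 1, where 15 of the 70 with recovered fragments had under 10, against 3 to 7 in the other libraries. With 3 libraries per stage and standard errors near 0.5, a log2 difference as large as that of the elongation factors was not detectable as a call.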
